A study of Mus musculus with 8 samples.

Results

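Fibroblast growth factors (FGFs) are a family of related proteins of which most are secreted and bind receptor tyrosine kinases. Receptor binding, with heparan sulfate as a cofactor, starts RAS-ERK and other kinase cascades, the ETS factors Etv4 and Etv5 are transcribed in response, and Sprouty and Spred proteins, some of which are themselves induced, hold the cascade back. In the developing cortex FGF signalling is known for patterning the forebrain and for its action on radial glia. A separate branch of the family, the intracellular FGFs or FGF homologous factors, is not secreted and binds the voltage-gated sodium channels of neurons.

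The genes of this signalling system were taken by symbol from the protein-coding genes of the count files: every Fgf gene, the receptor genes Fgfr1 to Fgfr4 and Fgfrl1, and all Spry, Spred, Etv4 and Etv5 genes. This gave 35 of the 21695 protein-coding genes that were matched by Ensembl identifier. They comprised 18 secreted ligands, 4 intracellular FGFs, 5 receptors, 6 Sprouty and Spred inhibitors and 2 ETS factors. Spry3 is not analysed here. Of the 35 genes, 26 had enough counts to be tested.

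RNA-seq counts came from the mouse cortex at postnatal day 1 (P1), with 4 control and 4 dcKO_Nex-Cre libraries on a C57BL6/J background. In the dcKO_Nex-Cre cortex the floxed genes of both BAF155 (Smarcc1) and BAF170 (Smarcc2), scaffold subunits of the BAF chromatin remodelling complex, were deleted by Nex-Cre. Controls were BAF155 fl/+, BAF170 fl/+ animals without Cre, so they carried floxed alleles too. Nex-Cre acts in postmitotic projection neurons of the cortex, and interneurons, glia and vessels in the same tissue keep both genes. Nex is another name of Neurod6, whose locus carries the Cre. Nothing in the labels says that the libraries came from separate animals, so the p values measure the spread between these samples. In whole tissue, fewer cells of a type and less RNA per cell cannot be told apart.

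Total counts ranged from 17958641 to 35191912 per library. Smarcc2 was at 56.9% and Smarcc1 at 69.2% of the control mean, without overlap between the groups in either gene. The share of mitochondrial counts was 2.33% to 6.87%, and it was highest in control replicate 2 (6.87%) and dcKO_Nex-Cre replicate 4 (6.15%). All controls and dcKO_Nex-Cre replicates 1 and 2 have lane tag 2 in their file names, and the other two libraries have lane tag 8, a lane with no control. The biggest shift in a list of cell type markers was that of the choroid plexus, which summed to 17.3 to 1342 CPM in the control and 4.83 to 556 CPM in the dcKO_Nex-Cre libraries. CPM here means counts scaled to one library size after the TMM correction for library composition. The test was the quasi-likelihood test of edgeR, with Benjamini-Hochberg adjustment over the 16287 genes tested and a threshold of 0.05.

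One gene of the system passed that threshold. Fgf12, an intracellular FGF, fell to 69.5% of its control level. None of the secreted ligands, receptors, Sprouty and Spred inhibitors or ETS factors was called by edgeR or limma-voom, while DESeq2 called 1, Fgf9. Among all genes tested, 0.884% were called in either direction and 0.510% were called lower. At an unadjusted p under 0.05, Fgf12 and the secreted ligand Fgf9 were lower in the dcKO_Nex-Cre cortex, 2 of the 26 genes, where 13.6% of all genes tested lay under that limit and 7.05% did so with a lower level. The same 2 of the 26 genes were the ones whose CPM did not overlap between the groups. In the whole set, 1303 of the 16287 genes tested did not overlap in either direction, and 4.01% were lower without overlap. The median log2 fold change of the 26 genes was -0.04, against 0.00 over all genes tested, with 12 estimates above 0 and 14 below.

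**Figure D1:**
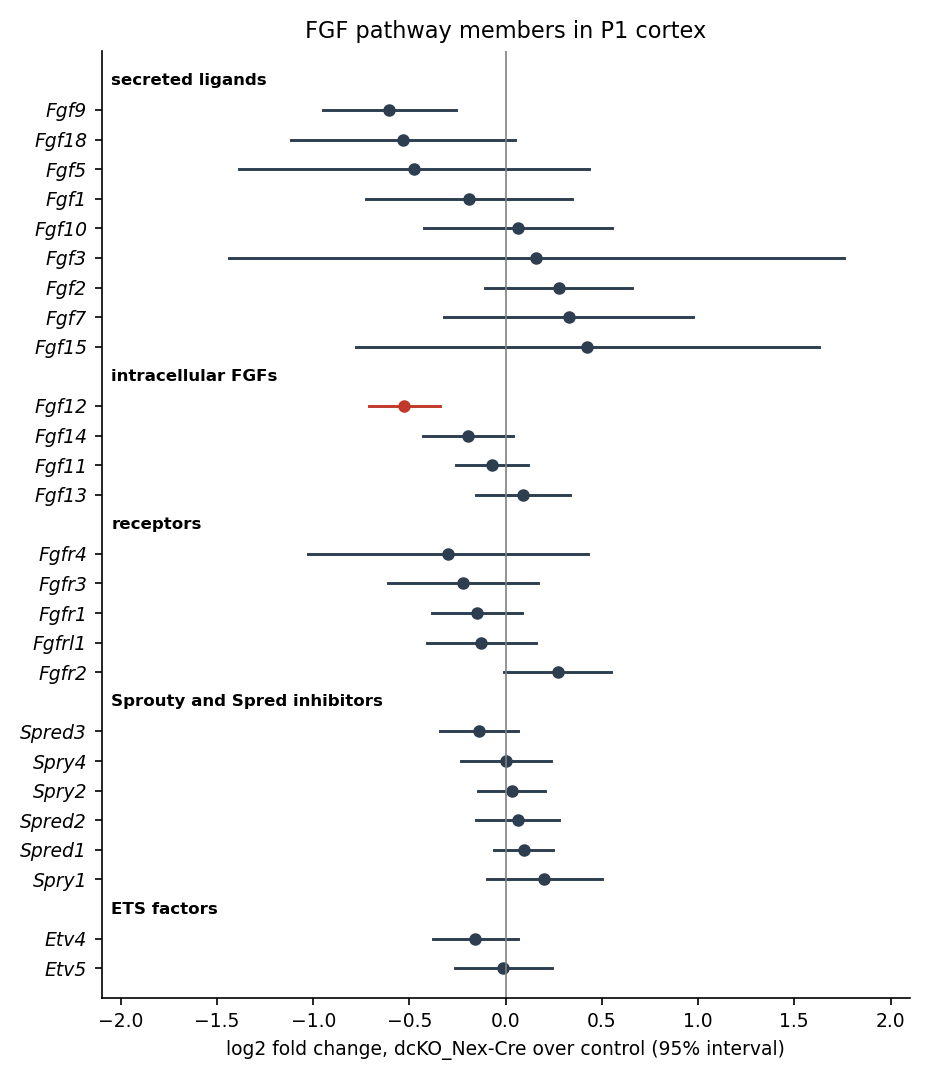
Log2 fold change of each of the 26 tested genes in the dcKO_Nex-Cre over the control cortex (points) with its 95% interval (lines), grouped by role. Fgf12, in red, is the one gene with an adjusted p under 0.05 and sits at -0.53. The interval of Fgf9 also stays below 0, while those of the other 24 genes cross 0.

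The 250 bases before a transcription start are shown for Fgf12 and Fgf9, the genes with the clearest differences in level, as RefSeq gives them on GRCm38.p6. Of the 35 genes, 26 have such windows in the table used here, 34 windows in all. Capitals mark CG dinucleotides, and both sequences read 5′ to 3′ on the strand of the gene. Fgf12 has 4 windows in the table, of which the one that ends at a GENCODE start and holds no annotated exon is printed. It lies at chr16:28564952-28565201 on the minus strand, before the transcript Fgf12-202. The Fgf9 window lies at chr14:58072436-58072685 on the plus strand and ends at the start of Fgf9-201.
Fgf12: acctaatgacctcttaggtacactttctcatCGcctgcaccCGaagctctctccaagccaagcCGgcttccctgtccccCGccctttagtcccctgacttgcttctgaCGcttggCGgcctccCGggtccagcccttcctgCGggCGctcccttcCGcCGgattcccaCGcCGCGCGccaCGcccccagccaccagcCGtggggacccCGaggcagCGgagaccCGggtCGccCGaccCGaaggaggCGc
Fgf9: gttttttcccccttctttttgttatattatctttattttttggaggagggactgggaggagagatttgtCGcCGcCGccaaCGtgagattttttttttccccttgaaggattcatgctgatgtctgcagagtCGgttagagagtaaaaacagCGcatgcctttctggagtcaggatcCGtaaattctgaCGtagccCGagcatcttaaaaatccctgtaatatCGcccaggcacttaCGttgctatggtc
The printed Fgf12 window holds 24 CG dinucleotides and the Fgf9 window 11. The median was 18 in the 34 windows of the FGF system and 6 in all 32851 windows of the table. Neither printed sequence has a match to the E-box CANNTG, the motif bound by basic helix-loop-helix factors such as Neurod6, or to CCGGAA, a core motif of ETS factors, on either strand. Of the 3 Fgf12 windows not printed, 2 hold an E-box and 1 of these also holds CCGGAA. An E-box was found in 66.2% of all windows and in 20 of the 34, and CCGGAA in 12.03% of all windows and in 4 of the 34. A match is only a run of letters, and binding was not measured.

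Among the intracellular FGFs, Fgf13 was far more abundant than the others. Per kilobase of exon it was at 55.6 ± 4.82 CPM per kb (SD, n = 4) in the control, the highest level of all 26 genes. Fgf12 followed at 9.42 ± 0.63, Fgf11 at 8.93 ± 0.45 and Fgf14 at 6.62 ± 0.40 CPM per kb, all 3 below Spry2, Spred1, Fgfr1 and Spred2. The control ranges of Fgf13 and the next gene in the order, Spry2, did not overlap, whereas those of Fgf12, Etv5 and Fgf11, which are neighbours in the order, did. The place of Fgf12 depended on the length used. Per kilobase of the longest annotated transcript, Fgf12 was at 14.1 ± 0.95 CPM per kb in the control. Spred2 was then at 11.3 ± 0.78 and Fgf11 at 8.95 ± 0.45 CPM per kb, both below Fgf12 without overlap, and Fgf13 stayed highest.

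**Figure D2:**
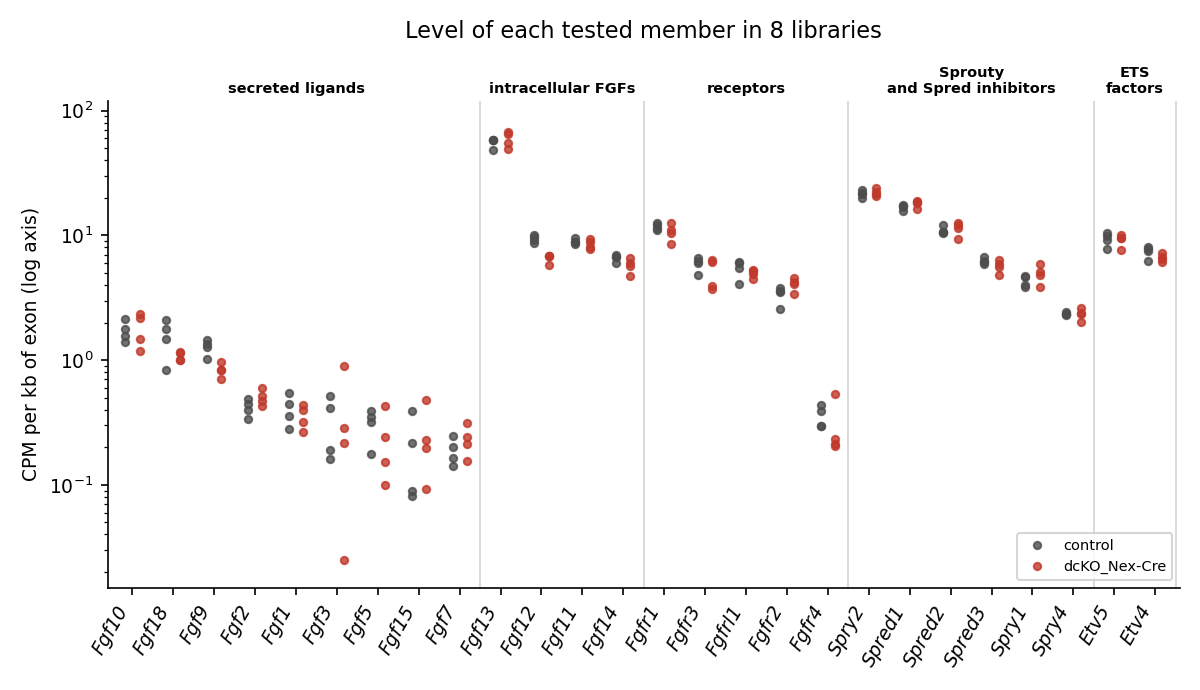
Level of the 26 tested genes in CPM per kilobase of exon (vertical log axis) in each of the 4 control (grey) and 4 dcKO_Nex-Cre (red) libraries, grouped by role. Fgf13 is highest at 55.6 CPM per kb in the control, and the 9 secreted ligands have control means from 0.188 to 1.72 CPM per kb, a range that also holds the receptor Fgfr4 at 0.354.

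Fgf12 (ENSMUSG00000022523, chromosome 16 of GRCm38, 28160098 to 28753068, minus strand) encodes FGF homologous factor 1 and shares no exon bases with another annotated gene. It was at 62.6, 53.6, 57.2 and 60.3 CPM in control replicates 1 to 4. In dcKO_Nex-Cre replicates 1 to 4 it was at 42.0, 35.8, 42.4 and 42.2 CPM. Every dcKO_Nex-Cre library was thus below every control library. The means were 58.4 ± 3.93 CPM and 40.6 ± 3.20 CPM (SD, n = 4 each). The log2 fold change was -0.53 (standard error 0.08, 95% interval -0.71 to -0.34, edgeR adjusted p = 0.0196). An exact permutation test of the CPM over all 70 regroupings gave a two-sided p of 0.0286, the smallest these group sizes allow. Within lane tag 2 (4 control and 2 dcKO_Nex-Cre libraries) the log2 fold change was -0.58 (edgeR adjusted p = 0.0314).

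The size of the Fgf12 difference held when single libraries were left out, but the call did not always hold. Over the 8 such fits the log2 fold change was between -0.56 and -0.47, and Fgf12 was called in 3 of them. The edgeR adjusted p was 0.101 without control replicate 1, 0.0609 without control replicate 3 and 0.0963 without control replicate 4. It was 0.0539 without dcKO_Nex-Cre replicate 2 and 0.0701 without dcKO_Nex-Cre replicate 3. DESeq2's Wald test gave an adjusted p of 6.2e-06, and limma-voom one of 0.0219.

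The 8 excitatory projection neuron markers, which label the cells where Nex-Cre acts, are given beside Fgf12. They summed to 1564 to 1839 CPM in the control and 1319 to 1518 CPM in the dcKO_Nex-Cre libraries. Of the 8, 6 had estimates below 0, 3 were lower at an unadjusted p under 0.05, 2 were called by DESeq2 and 1 by edgeR. The gene called by edgeR was Neurod6, at 645 ± 84.4 CPM in the control and 387 ± 48.0 CPM in the dcKO_Nex-Cre cortex (SD, n = 4 each, edgeR adjusted p = 0.0192). The controls carried no Cre, so the Cre in the Neurod6 locus and the deletion cannot be told apart in the level of Neurod6 or of Fgf12. Without Neurod6 the other 7 markers summed to 980 to 1088 and 923 to 1107 CPM, so that the groups overlapped. The 8 interneuron markers summed to 723 to 872 and 623 to 777 CPM, with none called by edgeR, 1 lower at an unadjusted p under 0.05 and 1 called by DESeq2. The part of cell composition in the Fgf12 difference was not tested.

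The 3 other intracellular FGFs were not called. Fgf11, which encodes FGF homologous factor 3, was at 26.0, 29.2, 26.8 and 26.8 CPM in the control replicates and 27.0, 28.2, 24.6 and 23.7 CPM in the dcKO_Nex-Cre replicates. The log2 fold change of Fgf11 was -0.07 (95% interval -0.26 to 0.12). Fgf13, which also binds microtubules and is known for its role in cortical neuron migration, was at 232, 194, 235 and 232 CPM in the control and 273, 223, 259 and 196 CPM in the dcKO_Nex-Cre libraries. Its lowest libraries were control replicate 2 and dcKO_Nex-Cre replicate 4, the ones with the most mitochondrial counts, and its log2 fold change was 0.09 (95% interval -0.16 to 0.33). Fgf14, the gene of FGF homologous factor 4, was at 28.0, 25.3, 29.2 and 28.2 CPM and at 27.7, 25.2, 23.9 and 19.8 CPM. The groups of Fgf14 overlapped through dcKO_Nex-Cre replicate 1, with a log2 fold change of -0.20 (95% interval -0.43 to 0.04, exact permutation p = 0.0571).

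**Figure D3:**
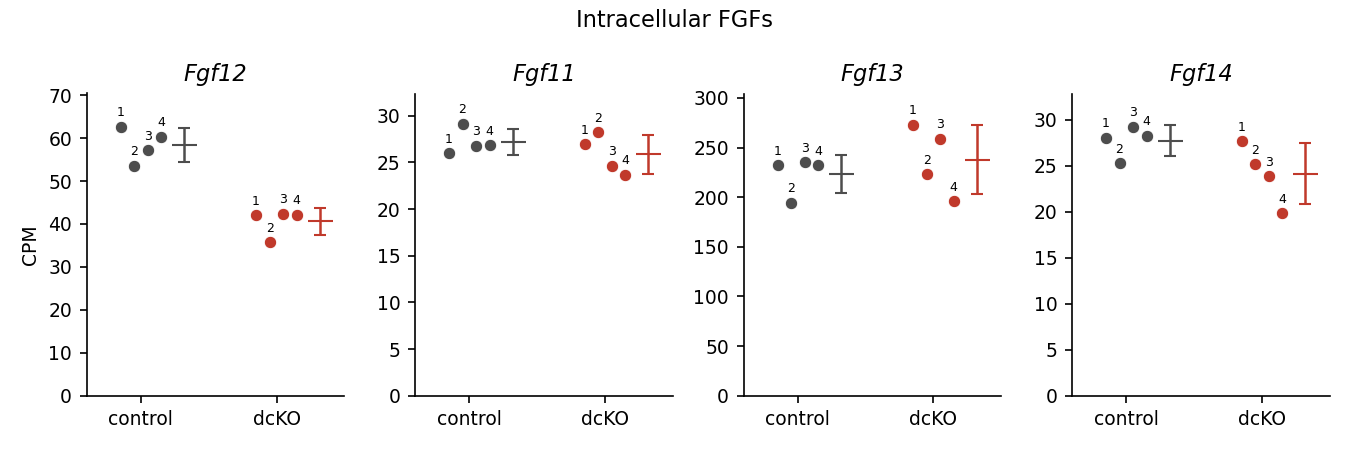
CPM of the 4 intracellular FGFs (vertical axes from 0) in control (grey) and dcKO_Nex-Cre (red) libraries, with replicate numbers at the points and the mean ± SD beside them. All dcKO_Nex-Cre libraries are below all control libraries in Fgf12 (35.8 to 42.4 against 53.6 to 62.6 CPM), and the groups overlap in Fgf11, Fgf13 and Fgf14.

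Whether Fgf12 differed from its relatives was examined within each library, as a log2 ratio of CPM, which removes the scaling between libraries. All 6 pairs of intracellular FGFs and the 3 pairs of Fgfr1, Fgfr2 and Fgfr3 were compared, a choice made after the values were seen. The ratio of Fgf12 to Fgf13 was -1.93 ± 0.08 in control and -2.54 ± 0.22 in dcKO_Nex-Cre cortex (SD, n = 4 each), a difference of -0.61 without overlap (exact permutation p = 0.0286, 0.0643 adjusted over the 9 ratios). The ratio of Fgf12 to Fgf11 was lower by 0.45, from 1.10 to 0.65, also without overlap and with the same p values. Against Fgf14 it was 1.08 ± 0.08 in control and 0.76 ± 0.26 in dcKO_Nex-Cre cortex, with overlap (exact permutation p = 0.0857, 0.129 adjusted). Fgf14 itself stood lower against Fgf13, since the ratio of Fgf13 to Fgf14 was 3.01 ± 0.05 and 3.30 ± 0.12 without overlap (exact permutation p = 0.0286, 0.0643 adjusted). None of the 9 ratios passed the threshold after adjustment, and 0.0286 is the smallest p that the design allows.

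Sodium channels are the known partners of the intracellular FGFs, and 8 of their genes were tested. By edgeR 0 of the 8 were called, with 2 higher at an unadjusted p under 0.05, 1 called by DESeq2 and none by limma-voom. Scn1a, the gene of the Nav1.1 channel, was at 29.0 ± 2.49 CPM in the control and 39.8 ± 4.27 CPM in the dcKO_Nex-Cre cortex (SD, n = 4 each) without overlap, with a log2 fold change of 0.46 (edgeR adjusted p = 0.0604, DESeq2 adjusted p = 0.0029). Scn3a, a channel gene prominent in the immature brain, differed by 0.20 on the log2 scale (standard error 0.09, edgeR adjusted p = 0.337). The median over the 8 channel genes was 0.16, against 0.00 over all genes tested.

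Secreted ligands were scarce. Of the 18 genes 9 were tested, and the other 9 did not pass the filter on low counts. Fgf4 and Fgf20 had no count in any library, which allows up to 0.016 CPM over all 8 libraries (3 counts in all, counting error only). Fgf6 had 1 count in all. Fgf8, the patterning signal of the anterior forebrain, had 4 counts in control replicate 2 and 3 in dcKO_Nex-Cre replicate 2 and none elsewhere. Those 2 libraries also had the highest sums of the thalamus and midline markers, 103 and 100.3 CPM, against at most 69.9 CPM in the other 6. Fgf16, Fgf17, Fgf21, Fgf22 and Fgf23 had 4 to 63 counts summed over the 8 libraries.

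Fgf9 (ENSMUSG00000021974, chromosome 14, 58070547 to 58112720, plus strand) is a neuronal ligand that is known to act on glia. It was at 6.69, 4.71, 5.88 and 6.30 CPM in control replicates 1 to 4 and at 4.49, 3.30, 3.84 and 3.87 CPM in dcKO_Nex-Cre replicates 1 to 4. The highest dcKO_Nex-Cre library lay just under the lowest control library. The means were 5.89 ± 0.86 CPM and 3.87 ± 0.49 CPM (SD, n = 4 each), 65.7% of the control level. The log2 fold change was -0.60 (standard error 0.16, 95% interval -0.95 to -0.26), a size near that of Fgf12 but with a wider interval, and the edgeR adjusted p of 0.125 missed the threshold. DESeq2 gave an adjusted p of 0.0269, a test by which 3.03% of all genes were called. Leaving out single libraries kept the log2 fold change between -0.69 and -0.53, with an edgeR adjusted p from 0.0532 to 0.375. The exact permutation p of the CPM was 0.0286.

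The other 8 tested ligands had intervals that crossed 0. Fgf10 had the highest control mean of the ligands per kilobase, 1.72 ± 0.33 CPM per kb (SD, n = 4). Its control range overlapped that of Fgf18, at 1.55 ± 0.55 CPM per kb. Fgf10 was at 6.40 to 9.91 CPM in the control and 5.40 to 10.8 CPM in the dcKO_Nex-Cre libraries. Fgf18, a ligand of the Fgf8 group, was at 2.11, 0.985, 1.75 and 2.51 CPM in the control and 1.19, 1.38, 1.36 and 1.18 CPM in the dcKO_Nex-Cre libraries. Its groups overlapped only through control replicate 2, with a log2 fold change of -0.53 (95% interval -1.12 to 0.05, edgeR adjusted p = 0.398). Control replicates 1 and 4, where Fgf18 was highest, also had the highest sums of choroid plexus markers, 742 and 1342 CPM. The next highest sum, 556 CPM in dcKO_Nex-Cre replicate 2, went with 1.38 CPM of Fgf18, below the 1.75 CPM of control replicate 3 with a sum of 94.5 CPM. The part of these markers in the difference was not tested. Fgf2, a ligand of broad receptor binding, had a log2 fold change of 0.27 (95% interval -0.11 to 0.66). Its exons share 640 bases with Nudt6 on the opposite strand, and the sources used here do not say whether reads were counted by strand.

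Fgf1, Fgf3, Fgf5, Fgf7 and Fgf15 were at or under 3.0 CPM in every library. Fgf3 varied most, from 0.058 CPM in dcKO_Nex-Cre replicate 1 to 2.07 CPM in dcKO_Nex-Cre replicate 2, and its 95% interval on the log2 scale ran from -1.44 to 1.76. Fgf15, the mouse counterpart of human FGF19, had 1.2 CPM in control replicate 2 and 1.46 CPM in dcKO_Nex-Cre replicate 2, and 0.702 CPM or less elsewhere. An antisense gene, Gm26793, covers 24.9% of its exon bases and had more counts than Fgf15 itself (59.8 against 16.2 on average). No difference in these 5 ligands was detectable at this depth.

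The receptors were led by Fgfr1, which was at 11.8 ± 0.70 CPM per kb in the control. Fgfr3 was at 5.90 ± 0.77, Fgfrl1, a receptor-like protein without a kinase, at 5.40 ± 0.90, and Fgfr2 at 3.37 ± 0.54 CPM per kb (SD, n = 4 each). Fgfr4 was scarce at 0.354 ± 0.068 CPM per kb. Fgfr1 stood apart from Fgfr3, while the control ranges of Fgfr3 and Fgfrl1 overlapped. With the longest annotated transcript as the length instead of the union of exons, Fgfr1 moved from rank 4 to rank 2 of the 26 genes, Fgfr3 from 12 to 7 and Fgfr2 from 15 to 12. Fgfrl1 moved from 13 to 14, so the order of Fgfr2 and Fgfrl1 depended on the length used. By that length Fgfr2 was at 7.86 ± 1.26 and Fgfrl1 at 6.46 ± 1.08 CPM per kb in the control, with overlap.

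Fgfr1 was at 113, 120, 124 and 109 CPM in the control replicates and 108, 124, 103 and 84.2 CPM in the dcKO_Nex-Cre replicates. Its groups overlapped, with a log2 fold change of -0.15 (95% interval -0.38 to 0.08), and within lane tag 2 the value was 0.00. Fgfr3, a receptor of radial glia and astrocytes, was at 44.5, 34.3, 43.3 and 46.9 CPM and at 45.7, 28.2, 43.9 and 26.7 CPM. The dcKO_Nex-Cre libraries of Fgfr3 formed a high and a low pair, and the log2 fold change was -0.22 (95% interval -0.61 to 0.17). The 8 radial glia and astrocyte markers summed to 2268 to 2699 CPM in the control and 1846 to 2382 CPM in the dcKO_Nex-Cre libraries. Of these 8, however, 5 had estimates above 0, with a median log2 fold change of 0.09, and 1 was higher and 1 lower at an unadjusted p under 0.05.

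Fgfr2 was the one receptor with an estimate above 0. Its exons share 314 bases (3.04%) with Ctbp2, a gene on the same strand with 1113.5 counts on average against 928.4 for Fgfr2. Fgfr2 was at 39.1, 26.6, 36.3 and 37.3 CPM in the control and 43.7, 41.9, 47.2 and 35.2 CPM in the dcKO_Nex-Cre replicates. Only dcKO_Nex-Cre replicate 4 lay within the control range, and the log2 fold change was 0.27 (95% interval -0.01 to 0.55, edgeR adjusted p = 0.381). Without control replicate 2 and dcKO_Nex-Cre replicate 4, the libraries with the most mitochondrial counts, the value was 0.24 with an edgeR adjusted p of 0.0450. That pair was chosen after the data were seen, and 1794 of the 16330 genes tested were called in the same fit. The 6 oligodendrocyte precursor markers, cells that also express Fgfr2, summed to 274, 187, 263 and 277 CPM in the control and 339, 321, 317 and 271 CPM in the dcKO_Nex-Cre replicates, with Cspg4 called higher (log2 fold change 0.56, edgeR adjusted p = 0.0355). All 6 of these markers had estimates above 0 (median log2 fold change 0.36). Of them, 4 were higher at an unadjusted p under 0.05, where 13.6% of all genes tested lay under that limit in either direction. Control replicate 2 was lowest in both Fgfr2 and the oligodendrocyte precursor markers. It was also lowest in the sums of cycling progenitor markers (147 CPM) and of endothelium and pericyte markers (225 CPM). Among the controls it was lowest in radial glia and astrocyte markers (2268 CPM). All 6 cycling progenitor markers had estimates above 0 (median log2 fold change 0.28), 0 of them at an unadjusted p under 0.05. The part of any of these cell types in the Fgfr2 values was not tested.

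Within the summed level of the 4 receptor kinases per kilobase, Fgfr2 took 17.4%, 12.9%, 15.6% and 16.8% in the control replicates and 19.4%, 19.5%, 21.4% and 21.0% in the dcKO_Nex-Cre replicates. The groups did not overlap in this share. Fgfr1 took 55.2% ± 4.26 and 53.1% ± 5.20 and Fgfr3 27.5% ± 2.75 and 25.0% ± 4.92 (SD, n = 4 each), both with overlap. As a log2 ratio of CPM, Fgfr2 to Fgfr3 was -0.29 ± 0.08 in control and 0.25 ± 0.29 in dcKO_Nex-Cre cortex without overlap (SD, n = 4 each, exact permutation p = 0.0286, 0.0643 adjusted over the 9 ratios). The ratio of Fgfr2 to Fgfr1 differed by 0.44 with overlap (exact permutation p = 0.0857, 0.129 adjusted). The summed level of the 4 kinases was 21.4 ± 1.08 CPM per kb in the control and 20.03 ± 2.59 CPM per kb in the dcKO_Nex-Cre cortex.

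**Figure D4:**
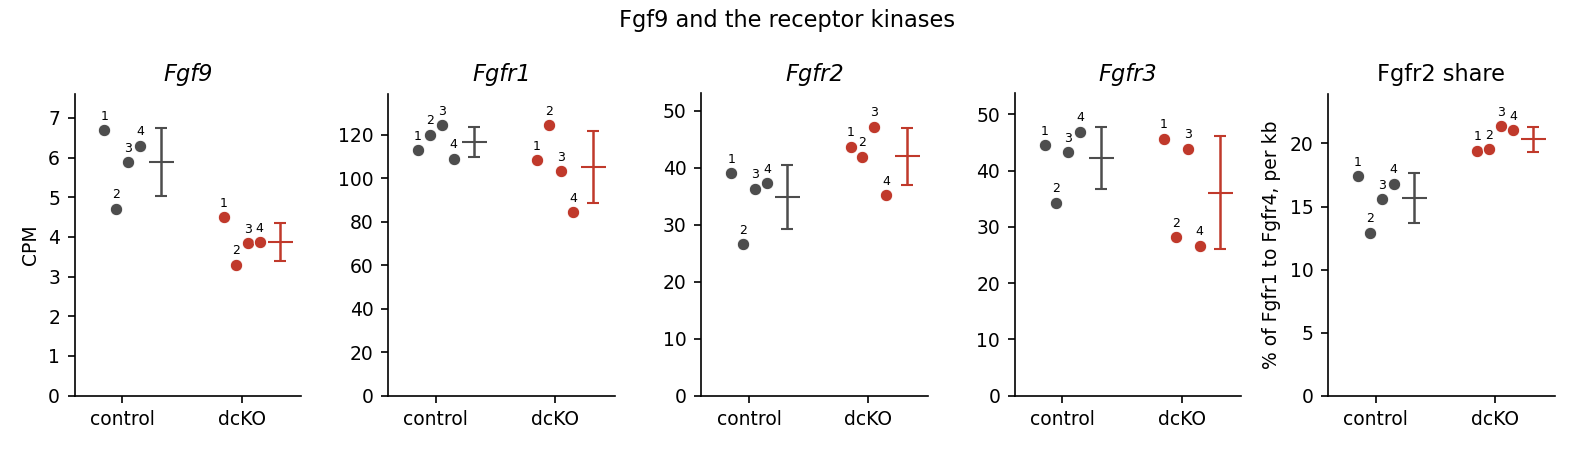
CPM of Fgf9, Fgfr1, Fgfr2 and Fgfr3, and the share of Fgfr2 in the summed level of the 4 receptor kinases per kilobase (right panel, percent), in control (grey) and dcKO_Nex-Cre (red) libraries with replicate numbers and the mean ± SD. Fgf9 and the Fgfr2 share do not overlap between the groups (Fgfr2 share 12.9% to 17.4% against 19.4% to 21.4%), and the CPM of the 3 receptors do.

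None of the Sprouty and Spred inhibitors was called, with log2 fold changes from -0.14 to 0.20. Spry2 was the most abundant of them per kilobase at 21.7 ± 1.35 CPM per kb in the control, followed by Spred1 at 16.8 ± 0.74 and Spred2 at 10.9 ± 0.75 CPM per kb (SD, n = 4 each). Spry2, an inhibitor induced by FGF signalling, was at 48.6, 41.8, 44.9 and 45.9 CPM in the control and 43.5, 44.8, 46.6 and 50.5 CPM in the dcKO_Nex-Cre libraries. Its log2 fold change of 0.03 had a 95% interval from -0.14 to 0.20. Spry4 was at 11.2 ± 0.22 CPM in the control and 11.2 ± 1.18 CPM in the dcKO_Nex-Cre cortex (SD, n = 4 each, 95% interval of the log2 fold change -0.23 to 0.24). Spry1 had the largest estimate of the group, 0.20 (95% interval -0.10 to 0.50), with 11.2 to 13.8 CPM in the control and 11.3 to 17.2 CPM in the dcKO_Nex-Cre libraries. Within lane tag 2 the estimate of Spry1 was 0.36 (edgeR adjusted p = 0.142). It was between 0.10 and 0.30 when single libraries were left out, with an edgeR adjusted p from 0.117 to 0.844.

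None of the genes of the Spred proteins, which act on RAS through neurofibromin, was called. Spred1, mutated in Legius syndrome, was at 106 to 118 CPM in the control and 110 to 127 CPM in the dcKO_Nex-Cre libraries, with a log2 fold change of 0.09 (95% interval -0.06 to 0.25). Spred2 was at 48.5 to 55.6 and 43.4 to 57.8 CPM. Spred3 was at 36.8 to 41.7 and 30.2 to 39.3 CPM, and its estimate of -0.14 was the only one of the 6 inhibitors below 0 (95% interval -0.34 to 0.06).

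Etv4 and Etv5, transcribed in response to FGF-ERK signalling, were not called either. Etv4 was at 25.1, 19.4, 23.4 and 24.1 CPM in the control and 20.03, 22.5, 20.9 and 19.0 CPM in the dcKO_Nex-Cre libraries. Control replicate 2 lay within the dcKO_Nex-Cre range and the other controls above it, with a log2 fold change of -0.16 (95% interval -0.38 to 0.06). Etv5 was at 40.3, 31.7, 43.0 and 37.4 CPM and at 39.2, 39.1, 41.6 and 31.1 CPM, with a log2 fold change of -0.01 (95% interval -0.26 to 0.24). Among 13 other transcripts known to follow FGF-ERK signalling, 0 were called by edgeR and none by limma-voom, with 1 higher and 1 lower at an unadjusted p under 0.05. Bhlhe40, an activity-regulated repressor, was at 25.6 ± 3.33 and 36.7 ± 7.43 CPM (SD, n = 4 each) with a log2 fold change of 0.52 (edgeR adjusted p = 0.154) and was the 1 gene called by DESeq2 (adjusted p = 0.0404). Dusp5, an ERK phosphatase, was at 3.32 ± 0.27 and 2.48 ± 0.53 CPM (edgeR adjusted p = 0.338). The median of the 13 was -0.04.

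Of the 30 genes for heparan sulfate and FGF coreceptors, 29 were tested and 0 were called by edgeR or limma-voom, while 3 were higher and 3 lower at an unadjusted p under 0.05 and DESeq2 called 3. Flrt2, a membrane partner of FGF receptors, was at 97.3 ± 6.36 CPM in the control and 123.9 ± 10.9 CPM in the dcKO_Nex-Cre cortex without overlap (SD, n = 4 each, log2 fold change 0.35, edgeR adjusted p = 0.0809, DESeq2 adjusted p = 0.00737). Sdc2, the core protein syndecan 2, had a log2 fold change of 0.42 (edgeR adjusted p = 0.145) and Ndst4, a heparan sulfate sulfotransferase, one of -0.57 (edgeR adjusted p = 0.143), both without overlap and both called by DESeq2. Sdc1, or syndecan 1, was at -0.36 (edgeR adjusted p = 0.187).

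Sulf1, a sulfatase that trims heparan sulfate at the cell surface, had the largest estimate of these lists, -1.50 (standard error 0.41, edgeR adjusted p = 0.154). It was at 24.3, 14.4, 13.1 and 34.3 CPM in the control and 6.93, 13.8, 5.78 and 3.76 CPM in the dcKO_Nex-Cre replicates, so that the groups overlapped. The 3 highest sums of choroid plexus markers were in control replicate 4, control replicate 1 and dcKO_Nex-Cre replicate 2, which were the highest libraries of their groups in Sulf1. Libraries with like sums still differed in Sulf1. Control replicate 2 and dcKO_Nex-Cre replicate 1 had sums of 17.3 and 16.3 CPM, with Sulf1 at 14.4 and 6.93 CPM. In dcKO_Nex-Cre replicate 2 the sum was 556 CPM and Sulf1 was at 13.8 CPM. The part of these markers in the Sulf1 difference was not tested.

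The 23 genes for adaptors, RAS-ERK and other receptor outputs were tested, and 0 were called by edgeR, DESeq2 or limma-voom, with 4 higher and 0 lower at an unadjusted p under 0.05. Among them were Gab1, a docking protein (log2 fold change 0.33), Mapk3, the gene of ERK1 (0.23), and Plcg1, the phospholipase downstream of the receptors (0.18), with edgeR adjusted p from 0.281 to 0.343. The median over the 23 genes was 0.03. Across the 4 lists together, 14 of 73 tested genes had an unadjusted p under 0.05, beside 13.6% of all genes tested.

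How firmly Fgf12 and Fgf9 were called depended on the fit, while their direction did not in any fit run. In all 17 alternatives both log2 fold changes were below 0.

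**Figure D5:**
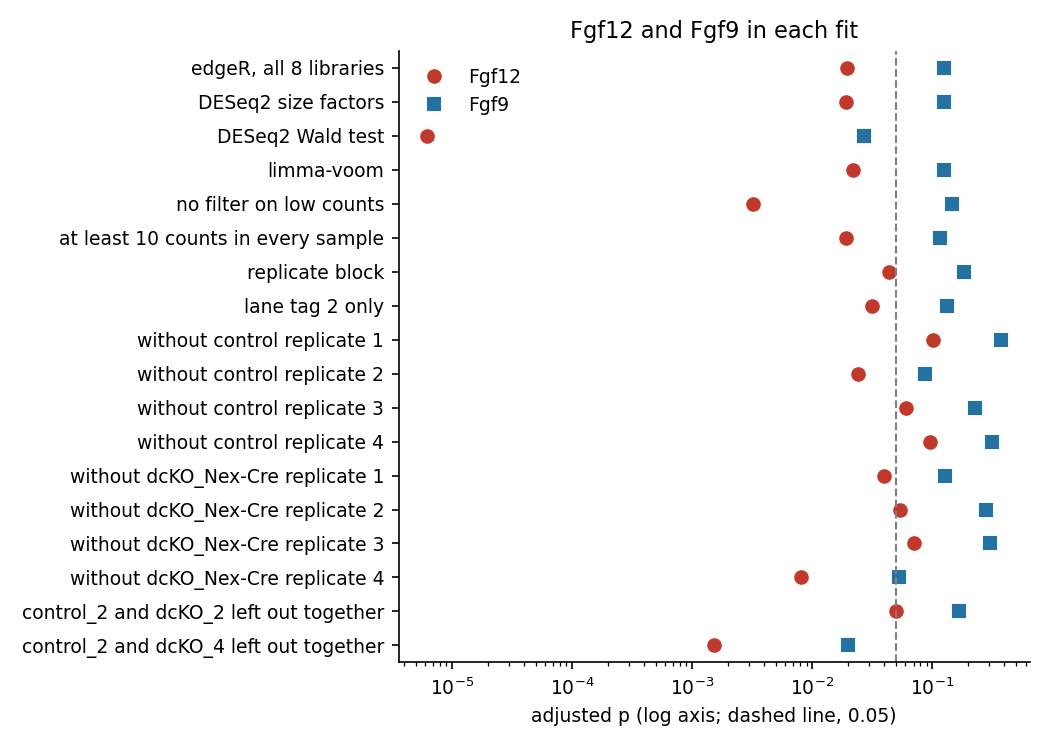
Adjusted p of Fgf12 (red circles) and Fgf9 (blue squares) on a log axis in the edgeR fit of all 8 libraries and in 17 alternatives, with a dashed line at 0.05. Fgf12 lies between 6.2e-06 and 0.101, and Fgf9 between 0.0197 and 0.375, with Fgf9 left of the line by DESeq2's Wald test and without control replicate 2 and dcKO_Nex-Cre replicate 4.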

How the data were processed

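Raw read counts per Ensembl gene, without normalization, were deposited by the authors for 8 libraries of total RNA from P1 cortex. The submitters' processing notes name the build mm10. The aligner, the counting program, the annotation and the strand setting are not given in the sources used here. Each file lists 48709 genes, of which 48349 were matched to GENCODE M21. Groups came from the sample labels, and that the Cre is Nex-Cre and what the controls carry was taken from the study's text.

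Counts were analysed with edgeR 4.0.16 in R 4.3.3. Genes were filtered by filterByExpr, scaled by TMM and compared by the robust quasi-likelihood test, two-sided, without covariates. CPM of single genes were compared by exact permutation. Levels per kilobase used the union of GENCODE exons. Alternatives were DESeq2 1.42.0 (size factors, Wald test), limma-voom (limma 3.58.1), other filters, a replicate block, lane tag 2 alone and libraries left out. Fits were tested on simulated data first. No library was a copy of another of its group, and the lowest chi-square per degree of freedom between 2 libraries was 3.77.

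The genes and gene lists were chosen with earlier results of these data known. Every FGF gene found by symbol is accounted for. Of the other lists, genes with an adjusted p under 0.05 and up to 5 per list with the smallest unadjusted p under 0.05 are named, with Smarcc1, Smarcc2 and Neurod6 as checks. One withheld item is not reported here. Among marker genes, C1qb (microglia, log2 fold change 0.46, edgeR adjusted p = 0.0422) and Ppp1r1b (striatum, 0.96, 0.0400) were also called higher. The lists for cycling progenitors, endothelium and pericytes, meninges and fibroblasts, Cajal-Retzius cells, radial glia and astrocytes, choroid plexus, thalamus and midline and blood had no gene called by edgeR or limma-voom. In them 1 gene was higher and 2 were lower at an unadjusted p under 0.05, and DESeq2 called 2.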

Additional observations from a re-analysis of the deposited data

Results flagged for a closer look

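In 4 of the 56 groups of 4 libraries examined, both groups for each tested gene, the total count and the mitochondrial share, 1 library stood apart from the other 3, where chance gives about 1 in 20. Fgf12 was at 35.8 CPM in dcKO_Nex-Cre replicate 2, below the 42.0 to 42.4 CPM of the other dcKO_Nex-Cre libraries. Fgf13 was at 194 CPM in control replicate 2, below the 232 to 235 CPM of the other controls. Fgfr4 was at 1.91 CPM in dcKO_Nex-Cre replicate 4, above the 0.728 to 0.825 CPM of the other dcKO_Nex-Cre libraries. Spred2 was at 55.6 CPM in control replicate 3, above the 48.5 to 48.9 CPM of the other controls.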

How the results depend on the processing

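Across all genes tested, 144 were called, against 494 by DESeq2's Wald test, 259 without a filter, 248 within lane tag 2, 54 with the replicate block and 18 to 1278 when single libraries were left out. The lowest number came without control replicate 1 and the highest without dcKO_Nex-Cre replicate 4. Genes of the FGF system called numbered 1, against 2 by DESeq2's Wald test (Fgf12 and Fgf9) and 0 to 1 without single libraries. Genes of the system at an unadjusted p under 0.05 numbered 2, against 4 without a filter, 4 within lane tag 2 and 2 to 8 without single libraries, the most without dcKO_Nex-Cre replicate 4. The share of all genes under that limit in these alternatives is not given here. Genes of the 4 pathway lists called by edgeR numbered 0, against 5 by DESeq2's Wald test, 1 without a filter (Scn1a) and 0 to 6 without single libraries. DESeq2 size factors and limma-voom changed none of these 4 counts by over 1.5 times, and neither did a minimum of 10 counts in every library.

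2 pairs of libraries were left out after the data were seen. Without control replicate 2 and dcKO_Nex-Cre replicate 2, which had the highest midline marker sums, 40 of all genes, 0 genes of the system and 0 genes of the lists were called, with 5 of the system at an unadjusted p under 0.05 and an edgeR adjusted p of 0.0501 for Fgf12. Without control replicate 2 and dcKO_Nex-Cre replicate 4, which had the most mitochondrial counts, 1794 of the 16330 genes tested were called. In that fit 3 of the 26 tested genes of the system (Fgf12, Fgf9 and Fgfr2) and 12 of the lists were called. Of the system, 9 were at an unadjusted p under 0.05. The share of all genes under that unadjusted limit is not given here for either fit.

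Log2 fold changes that turned sign were small or of scarce genes, and none was called in either direction. Fgf3 (0.16) was at -0.60 by limma-voom, -0.16 with the block and -0.65 without control replicate 2 and dcKO_Nex-Cre replicate 2. Within lane tag 2 Fgf1 was at 0.040, Fgf11 at 0.025, Etv5 at 0.039 and Spry2 at -0.036. Without control replicate 2 and dcKO_Nex-Cre replicate 4, Fgf11 was at 0.010 and Spry2 at -0.043. Spry4 (0.00) was at -0.0048 with a minimum of 10 counts, -0.0057 with the block and -0.061 without control replicate 2 and dcKO_Nex-Cre replicate 2. When single libraries were left out, Fgf3 ranged from -0.95 to 0.61, Fgf10 from -0.099 to 0.23, Fgf15 from -0.070 to 0.98, Spry2 from -0.0070 to 0.073, Spry4 from -0.055 to 0.066 and Etv5 from -0.083 to 0.070. The deleted gene Smarcc1 kept its direction but lost its call with the block (-0.54), within lane tag 2 (-0.46) and in 6 of the 8 fits without single libraries (-0.63 to -0.47 over all 8). The cause of these changes was not tested.

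The samples share only a number, and the labels do not say whether same-numbered libraries were paired. The deviations of same-numbered libraries correlated at 0.13, 0.02, 0.13 and -0.14, and those of control replicate 2 and dcKO_Nex-Cre replicate 4 at 0.37. These correlations cannot decide whether there was a pairing. With the replicate number as a block Fgf12 kept its call (edgeR adjusted p = 0.0436), and 54 of all genes were called.

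Depth limits the scarce ligands most, since the 9 secreted ligands that were not tested had at most 63 counts over the 8 libraries. The 8 tested secreted ligands other than Fgf10 had control means of at most 5.89 CPM.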
